A study of Mus musculus with 2 samples.

Results

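Voltage-gated potassium (Kv) channel genes of the Kv1, Kv3 and Kv4 families were examined in laser-captured Purkinje cells, the neurons that carry the output of the cerebellar cortex. The 9 genes were taken by symbol from a table of 43346 mouse genes: the Kv1 pore subunits Kcna1, Kcna2 and Kcna6, the Kv beta subunits Kcnab1 and Kcnab2, the Kv3 subunits Kcnc1 and Kcnc4, and the Kv4 subunits Kcnd2 and Kcnd3. All 9 had a row in both libraries. The choice used gene names and no threshold, but earlier results of these data were known when it was made. The material was 2 pools of 30 cells each, from adult male B6CASTF1/J mice aged 14 months, a first-generation hybrid of C57BL/6 and castaneus (CAST) mice. No treatment or genetic change is named. The pools are numbered as biological replicates but share 1 donor identifier, so the spread between them (SD, n = 2) may be technical. They form 1 group, and no condition was compared. Levels are TPM (transcripts per 1000000), which are corrected for transcript length, or estimated read counts ("expected counts").

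Kv channels open on depolarisation and return the membrane towards rest. Pore-forming alpha subunits assemble as tetramers within a family. Kv1 channels open at low voltage, sit largely on axons and take up cytoplasmic beta subunits, some of which inactivate the channel with an N-terminal ball. Kv3 channels open at high voltage, close fast and keep the spikes of fast-firing neurons such as Purkinje cells brief. Kv4 channels carry a transient A-type current and assemble with KChIP proteins (Kcnip genes) and dipeptidyl peptidase-like proteins (Dpp6, Dpp10). Mutations of the human counterparts of Kcna1 and Kcnd3 cause inherited ataxias.

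The libraries held 31503819 and 28709397 expected counts over all rows in pools 1 and 2. All 15 Purkinje cell markers reached a TPM of 1 in each pool, and their summed TPM was 59889 and 57254. Of 10 Bergmann glia and astrocyte markers 9 did so, with summed TPM of 2358 in pool 1 and 4196 in pool 2. Of 10 granule cell markers 7 did so (43.7 and 51.0 in sum), and of 8 oligodendrocyte markers 4 did so (38.9 and 55.7). Of 8 markers of molecular layer interneurons 4 did so, namely Pvalb, which Purkinje cells share, Cplx1 (58.3 and 101.8), Prkcd (21.45 and 17.98) and Kit (2.38 and 1.62). The 7 markers other than Pvalb summed to 83.85 and 123.9 TPM. Of 5 red blood cell markers 4 did so, with summed TPM of 2453 and 16.3. No marker of these lists was at 0 in both pools, and the lowest were the myelin genes Mog and Mag, each at 0.05 and 0.07. In pooled cells, fewer cells of a type and less RNA per cell cannot be told apart.

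The coding sequence around the selectivity filter is shown because it is what these alpha subunits share as one superfamily, and because counting reads per gene depends on how far they differ. Each line gives 45 bases, 5′ to 3′, from GENCODE M21 transcripts, and capitals mark the 27 positions that are identical in the 6 genes shown.
Kcna1: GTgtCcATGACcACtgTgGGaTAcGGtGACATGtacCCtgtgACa
Kcna2: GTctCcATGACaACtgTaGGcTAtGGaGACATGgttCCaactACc
Kcna6: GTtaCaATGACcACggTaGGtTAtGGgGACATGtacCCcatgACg
Kcnc1: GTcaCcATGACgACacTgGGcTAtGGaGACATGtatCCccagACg
Kcnc4: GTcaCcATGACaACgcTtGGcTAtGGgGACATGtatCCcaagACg
Kcnd2: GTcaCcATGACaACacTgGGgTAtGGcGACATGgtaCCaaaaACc
Within these 45 bases Kcnc1 and Kcnc4 shared 40, and Kcna1 and Kcna2 shared 31. Kcna2 shared more with Kcnd2 (36) than with either Kv1 relative. In Kcnd2 an intron interrupts the stretch, while in the other 5 it lies in a single exon. Across whole transcripts the longest identical run between any pair of the 9 genes was 31 bases (Kcna1 and Kcna6), followed by 29 (Kcnc1 and Kcnc4) and 26 (Kcnab1 and Kcnab2). For 8 of the 9 genes the expected counts were whole numbers, within 0.005, in both pools, and the other was Kcna6 (514.98 in pool 2). Gm26673, which overlaps Kcna6 on the other strand, was also not whole in pool 2 (1.02 counts). Which genes shared reads was not tested.

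Over all transcripts of a gene, the beta subunit gene Kcnab1 stood far above the 7 pore-forming genes, none of which exceeded 11.73 TPM in either pool. Kcnab1 transcripts with an annotated coding sequence had only 0.22 and 0 TPM in pools 1 and 2. By mean TPM the order was Kcnab1, Kcna1, Kcna6, Kcnd3, Kcnab2, Kcnc1, Kcnd2, Kcnc4 and Kcna2. Kcnab1 ranked 338 among 21474 protein-coding genes, Kcna1 ranked 2113 and Kcna2 ranked 9560. Neighbours in that order were separated by more than the larger SD between pools except Kcnd3 and Kcnab2, Kcnab2 and Kcnc1, and Kcnc4 and Kcna2. Of the 9 genes 7 reached a TPM of 1 in each pool, Kcnc4 did so in pool 2 alone and Kcna2 in neither. Of all protein-coding genes 30.3% reached it in each pool. The median of log2(mean TPM + 1) was 2.67 for the 9 genes and 0.30 for all protein-coding genes. The 9 were chosen with earlier results known, so this difference says nothing about Kv genes in general. Of the 14 genes of the Kv1, Kv beta and Kv4 families, 6 reached a TPM of 1 in each pool, and their median was 0.79. For the 8 Kv1 genes alone, 2 reached it and the median was 0.23.

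**Figure D1:**
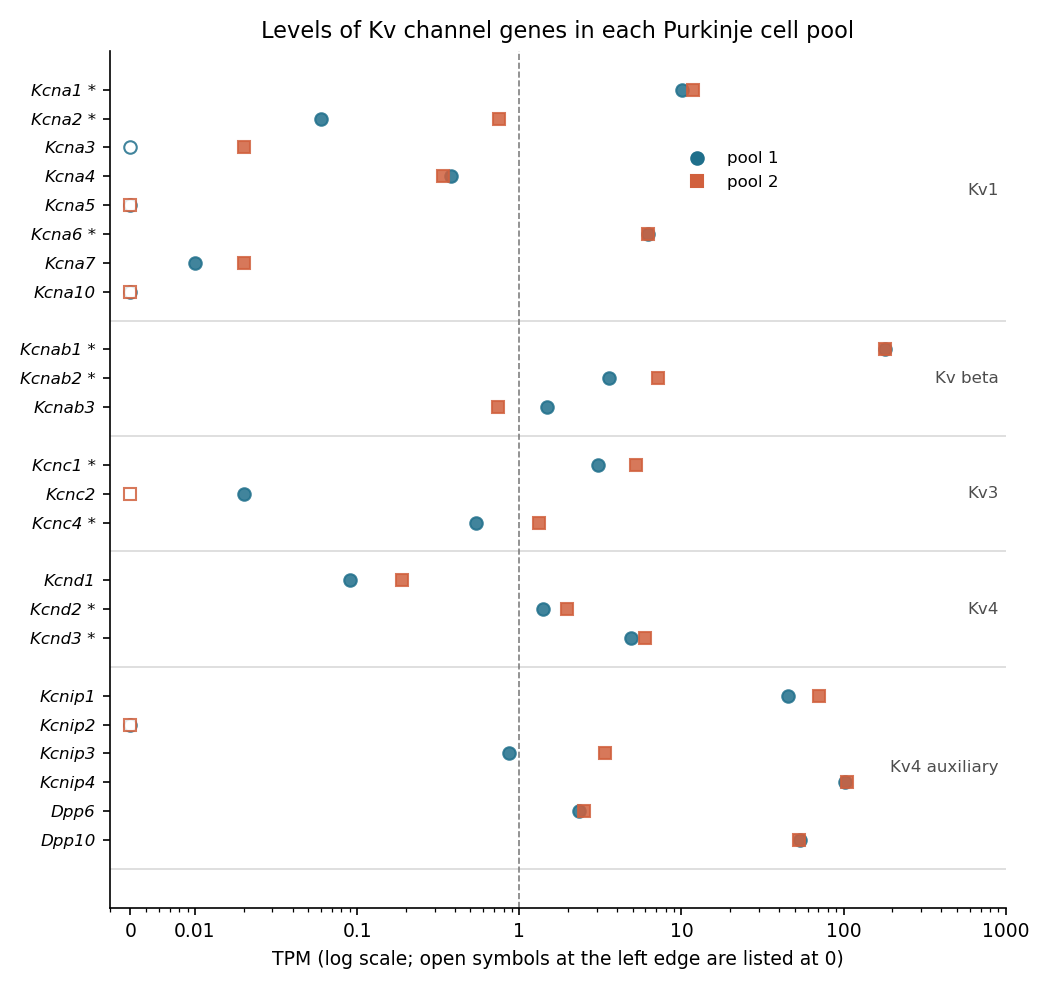
TPM (log axis) of genes of the Kv1, Kv beta, Kv3 and Kv4 families and of Kv4 auxiliary genes in pool 1 (circles) and pool 2 (squares); asterisks mark the 9 genes described, the dashed line is a TPM of 1, and open symbols at the left edge are listed at 0. Kcnab1 lies at 180 in both pools, while Kcna1, the highest of the 7 pore-forming genes marked, lies at 10.1 and 11.7. Levels take in transcripts without an annotated coding sequence, which hold nearly all of the Kcnab1 level.

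Among Kv1 pore subunits, reads were concentrated on Kcna1 and Kcna6. Kcna1 (Kv1.1, chromosome 6, 126640397 to 126646384, minus strand) stood at 10.1 TPM in pool 1 and 11.7 TPM in pool 2, from 3639 and 3640 counts. Kcna6 (Kv1.6, chromosome 6, 126708329 to 126740674, minus strand), which forms delayed rectifier channels, had 6.20 and 6.25, from 620 and 515 counts. Kcna2 (Kv1.2, chromosome 3, 107101146 to 107115005, plus strand), a common partner of Kv1.1 on axons, had 0.06 and 0.75, from 8 and 88 counts. The first pair of genes was close to level in the pools and Kcna2 was nearly absent from pool 1. Of the other 5 Kv1 genes, Kcna4, whose channel inactivates fast, had 0.38 and 0.34. Kcna3 had 0 and 1 counts, Kcna7 had 1 and 2, and Kcna5 and Kcna10 had none in either pool. A count of 0 allows up to 3 counts.

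The share of Kcna1 within Kv1 depended on the length used. It was 60.8% ± 0.77 (SD, n = 2) of the family's TPM, with Kcna6 at 34.9% ± 3.05 and Kcna2 at 2.14% ± 2.52. Its share of expected counts was 83.8% (exact 95% interval 82.7 to 84.9) in pool 1. In pool 2 the share was 84.6% (83.5 to 85.7). These intervals cover counting error only. The authors' annotation (M4) gives the single Kcna1 transcript 8970 bases, and the later release M21 gives that transcript 4031. Kcna2 goes the other way, from 3456 bases in M4 to 11582 in M21. The M21 span given above for Kcna1 is shorter than 8970 bases, so part of its M4 model lies outside that span. The exon positions of the M4 models were not used here, so which bases differ is not known, and the effect on the counts was not tested. With counts divided by the longest coding transcript in M21, a choice made after seeing the data, Kcna1 held 88.7% ± 0.84 and Kcna6 9.48% ± 1.15. Those counts were made on M4 models, so this division mixes releases and is not a matched length correction. It uses a shorter length than M4 for Kcna1 and a longer length for Kcna2. Kcna1 led the family under every measure run.

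Most Kcna6 reads were placed on a transcript with no annotated coding sequence. That model (ENSMUST00000128137) held 87.3% of the gene's TPM in pool 1 and 89.9% in pool 2, and 70.2% (exact 95% interval 66.4 to 73.7) and 75.7% (71.8 to 79.4) of its counts. Of its 2080 bases, 1974 are also in the long model, all of them 3′ of that transcript's stop codon, and 106 are its own. The long model (ENSMUST00000040751), which carries 1587 coding bases and which M21 lists as a target of nonsense-mediated decay, had 0.79 and 0.63 TPM from 184.9 and 125.4 counts. The other two transcripts, both protein-coding, were listed at 0 in both pools. So the TPM of 6.2 for the gene rests on the shorter, noncoding model, and the transcripts with the coding sequence made up 11.4% ± 1.88 (SD, n = 2) of it. Whether the placing followed where reads fell along the gene was not tested.

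**Figure D2:**
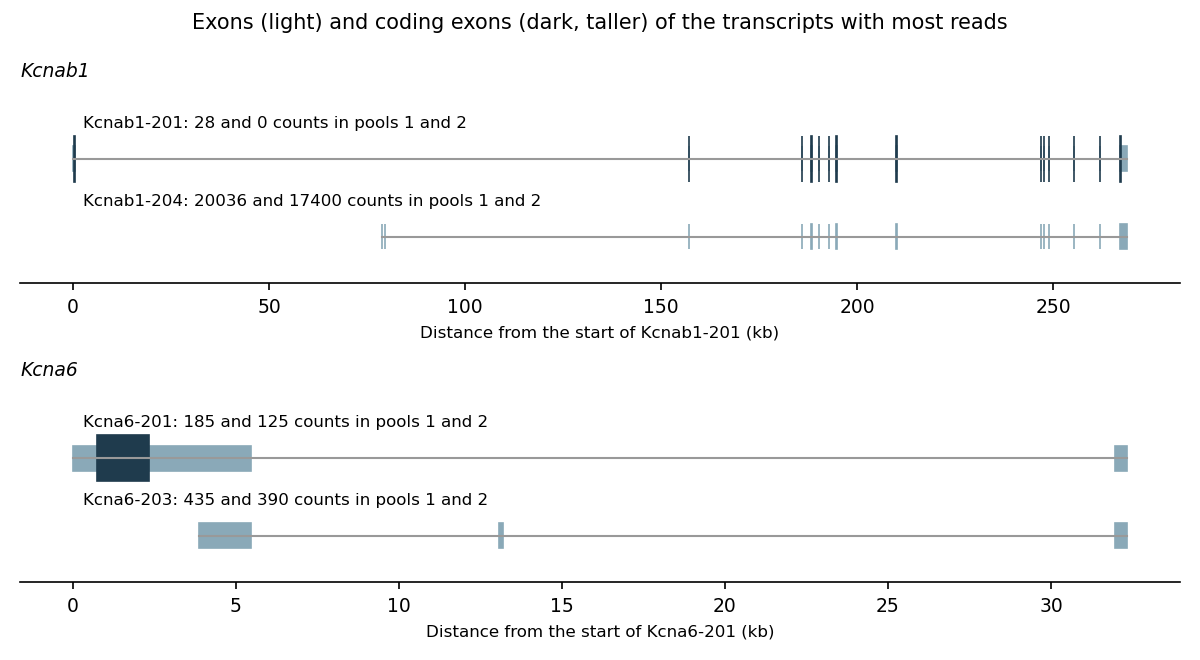
Exon maps of the transcripts holding nearly all reads of Kcnab1 and Kcna6, by distance in kb from the start of the coding transcript; light boxes are exons, dark taller boxes coding exons, and the expected counts of both pools are printed. In both genes most reads sit on the lower model, which has no annotated coding exon.

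Kcnab1 was the most abundant gene of the set by more than 10 times. Kcnab1 (Kv beta 1, chromosome 3, 65109384 to 65378223, plus strand), which can inactivate Kv1 channels, stood at 179.7 and 180.9 TPM in pools 1 and 2, from 20074 and 17400 counts. Kcnab2 (Kv beta 2, chromosome 4, 152390742 to 152477871, minus strand), which brings Kv1 channels to the axon, had 3.57 and 7.19, from 500 and 869 counts. Kcnab3, the third beta gene, had 1.49 and 0.74. Kcnab1 thus held 96.5% ± 1.03 (SD, n = 2) of beta subunit TPM, Kcnab2 2.87% ± 1.33 and Kcnab3 0.60% ± 0.29. The summed TPM of beta genes was 11.03 and 9.88 times that of the 8 Kv1 alpha genes. The ratio was 4.77 and 4.26 in counts, and 6.25 and 5.58 in counts per M21 length, where the counts were made on M4 models. Its size depended on the lengths, and its direction was the same in these 3 measures. All of them take in transcripts without an annotated coding sequence. Transcripts with an annotated coding sequence held 0.12% of Kcnab1 TPM in pool 1 and 0% in pool 2. On such transcripts Kcnab1 had 0.22 and 0 TPM and Kcnab2 3.57 and 7.19. Kcnab3 had 1.49 and 0.74 over all its transcripts. Even together these lie below Kcna1 alone (10.1 and 11.7). The direction of the ratio therefore rests on the Kcnab1 model without an annotated coding sequence. The ratio over coding transcripts alone was not computed.

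Nearly all Kcnab1 reads were placed on 1 model (ENSMUST00000161404), which M21 lists as a processed transcript without a coding sequence. It had 20036 and 17400 counts in pools 1 and 2, and 99.9% ± 0.14 (SD, n = 2) of the gene's TPM. The coding model (ENSMUST00000049230), with 401 codons including the N-terminal ball, had 27.6 and 0 counts. A count of 0 in pool 2 allows up to 0.0172% of the gene's counts. The models share 2636 bases. The coding model alone has 609 bases, its first exon, and the noncoding model alone has 213, nearly all in a pair of exons that start 78.7 kb further along the gene. The longest reading frame from an ATG in the noncoding model has 295 codons, all in frame within the coding sequence of the coding model, of which they cover 73.6%.

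The sequences that tell these models apart are shown because the placing turns on them. The first is the coding sequence found in the coding model alone, 221 bases at chr3:65109772-65109992, plus strand, mm10, which encode the N terminus with the ball.
Kcnab1 coding model, first coding exon: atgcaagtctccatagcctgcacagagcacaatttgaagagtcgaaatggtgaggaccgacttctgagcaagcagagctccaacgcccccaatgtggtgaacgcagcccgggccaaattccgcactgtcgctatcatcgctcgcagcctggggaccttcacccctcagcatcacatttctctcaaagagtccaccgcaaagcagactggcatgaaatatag
The second is the RefSeq promoter window (GRCm38.p6) whose start is the first base of the noncoding model, chr3:65187853-65188152, plus strand, with the 50 transcribed bases in capitals.
Kcnab1 noncoding model, start window: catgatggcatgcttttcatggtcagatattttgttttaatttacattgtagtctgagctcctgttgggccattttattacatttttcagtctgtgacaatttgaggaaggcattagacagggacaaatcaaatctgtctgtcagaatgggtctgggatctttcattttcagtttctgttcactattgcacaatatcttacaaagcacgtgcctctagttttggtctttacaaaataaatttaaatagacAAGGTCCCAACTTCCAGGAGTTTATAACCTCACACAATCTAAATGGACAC
That window holds 1 CG dinucleotide, against a median of 7 over 32851 RefSeq windows of the same length, and 5.43% of windows hold none. RefSeq has 3 start windows for Kcnab1, and the other two hold 3 and 7. AC113458.1, a gene on the same strand that begins within 50 bases of the most upstream RefSeq start (chromosome 3, 64949223 to 65223701), had 160 and 70 counts. Which first exon the Kcnab1 reads themselves covered was not tested, since the tables give estimates per transcript and not positions.

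Kcnab2 reads were divided between a pair of coding models. ENSMUST00000030768 held 61.3% of the gene's TPM in pool 1 and 50.9% in pool 2, and ENSMUST00000159840 held the rest. By the deposited posterior means the first held 50.5% and 34.3% and the second 32.5% and 54.7%, so their order in pool 2 turned with the estimate. Both encode the same 1059 bases. Their first exons lie 28.7 kb apart, with 125 bases found in the first alone and 166 in the second alone, 288 of them 5′ of the start codon. The other 12 annotated transcripts of the gene were listed at 0.

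**Figure D3:**
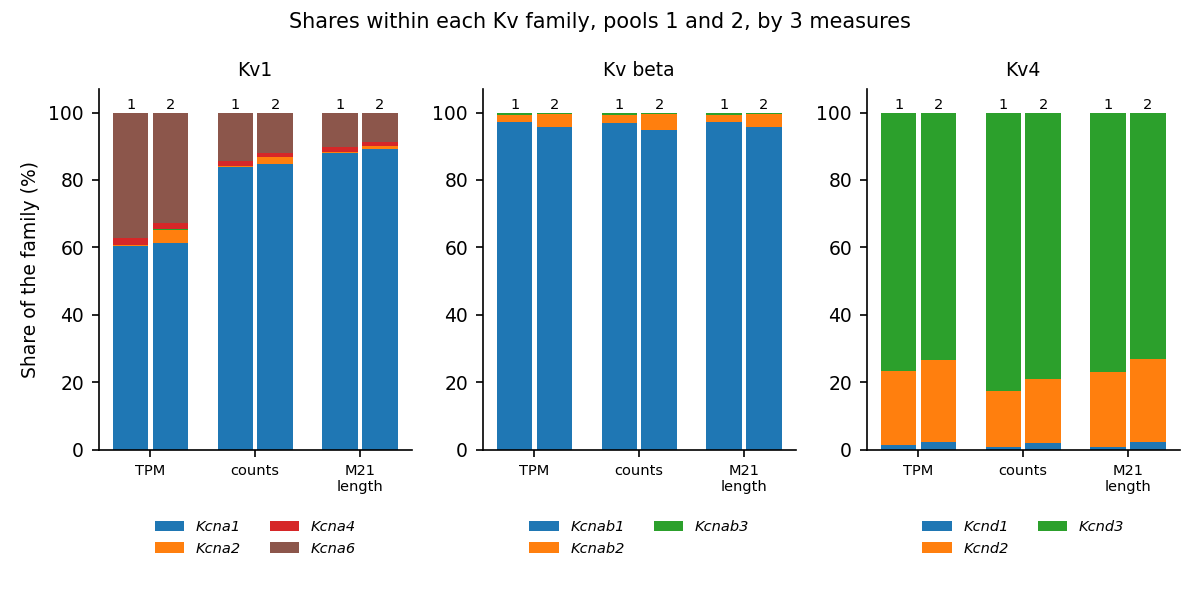
Shares (%) of each gene within the Kv1, Kv beta and Kv4 families in pools 1 and 2, by deposited TPM, by expected counts and by counts per length of the longest coding transcript in M21. The last measure divides counts made on M4 models by M21 lengths. Kcnab1 holds 96.0% to 96.5% on average under all 3 measures, while Kcna1 goes from 60.8% of TPM to 84.2% of counts and 88.7% by M21 length.

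The Kv3 genes Kcnc1 and Kcnc4 were both higher in pool 2. Kcnc1 (Kv3.1, chromosome 7, 46396497 to 46438704, plus strand) stood at 3.07 TPM in pool 1 and 5.22 TPM in pool 2, from 357 and 530 counts. Kcnc4 (Kv3.4, chromosome 3, 107438303 to 107459552, minus strand), whose channel inactivates fast, had 0.54 and 1.32, from 64 and 135 counts. Kcnc1 stood above Kcnc4 in each pool, and the pools of the pair did not overlap. Kcnc2 (Kv3.2) had 5 and 0 counts. No share within the Kv3 family is given.

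Kcnc1 reads favoured the longer of its splice forms, Kv3.1b. The form with 585 codons (ENSMUST00000160433) held 97.1% and 96.4% of the gene's TPM in pools 1 and 2, and 92.4% (exact 95% interval 89.2 to 94.96) and 90.6% (87.8 to 92.9) of its counts. The form with 511 codons (ENSMUST00000025202, Kv3.1a) had 26.8 and 50.1 counts. The forms share 1504 coding bases and then end differently, so only the ends are shown, plus strand, mm10, without the stop codon. The shorter lies at chr7:46428280-46428308, and the longer is joined from 2 exons between 46435158 and 46437333.
Kcnc1 short form, coding end: gtaggaaacctctcagaggcatgtcgatc
Kcnc1 long form, coding end: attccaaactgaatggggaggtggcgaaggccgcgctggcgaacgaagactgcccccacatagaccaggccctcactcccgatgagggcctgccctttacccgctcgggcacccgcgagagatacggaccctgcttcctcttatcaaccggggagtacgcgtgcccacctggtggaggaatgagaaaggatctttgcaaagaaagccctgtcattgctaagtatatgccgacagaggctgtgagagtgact
These are 29 and 251 bases long. Kcnc4 has a single transcript in M4, with 1884 coding bases in M21.

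Kv4 reads lay mainly on Kcnd3. Kcnd3 (Kv4.3, chromosome 3, 105452330 to 105674002, plus strand) stood at 4.92 TPM in pool 1 and 5.98 TPM in pool 2, from 1412 and 1466 counts. Kcnd2 (Kv4.2, chromosome 6, 21215503 to 21729805, plus strand), the Kv4 gene known for granule cells, had 1.41 and 1.98, from 289 and 350 counts. Kcnd1 had 0.09 and 0.19. Kcnd3 held 75.0% ± 2.31 (SD, n = 2) of the family's TPM and Kcnd2 23.1% ± 1.65, with the larger share on Kcnd3 in each pool. Its share of counts was 82.5% (exact 95% interval 80.6 to 84.2) in pool 1. In pool 2 that share was 79.2% (77.3 to 81.0). The form with 1908 coding bases (ENSMUST00000098761) held all Kcnd3 TPM in pool 1 and 98.2% in pool 2. The longer forms, with 1965 coding bases, were listed at 0 in both. The remainder in pool 2 was a retained-intron model with 14 counts. Kcnd2 has a single transcript.

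Of the Kv4 auxiliary genes, Kcnip4, Kcnip1 and Dpp10 lay far above the pore subunits, and Dpp6, Kcnip3 and Kcnip2 lay below Kcnd3. Of 6 genes 4 reached a TPM of 1 in each pool, against 30.3% of all protein-coding genes. Kcnip4 (KChIP4) had 102.4 and 105.5, Kcnip1 (KChIP1) 45.6 and 70.6, Dpp10 54.0 and 52.8, and Dpp6 2.34 and 2.52. Kcnip3 had 0.86 and 3.37, and Kcnip2 was listed at 0 in both. The summed TPM of the 6 was 31.97 and 28.8 times that of the 3 Kv4 genes, and their summed counts 12.6 and 10.98 times. A ratio of messages gives no ratio of subunits in channels.

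Of 11 genes for proteins that hold Kv1 channels in place on axons and at synapses, 7 reached a TPM of 1 in each pool. Of all protein-coding genes 30.3% did so. Adam23, a receptor of secreted Lgi proteins, had 139.7 and 158.6, and its relative Adam22 3.70 and 4.17. Epb41l3, the cytoskeletal linker protein 4.1B, had 60.2 and 55.7. The scaffold genes Dlg1 and Dlg2 had means of 18.2 ± 8.26 and 6.64 ± 0.37 (SD, n = 2). Their order was the reverse in counts. Dlg1 had 332 and 433 counts in pools 1 and 2, over estimated lengths of only 759 and 613 bases. Dlg2 had 704 and 639 counts, over 2609 and 2966 bases. Cntnap2, which encodes the axonal Kv1 partner Caspr2, had 1.47 ± 0.29, and Adam11 had 1.08 ± 0.06. The genes that did not reach 1 in each pool were Lgi1 (0.79 and 2.16), Lgi3 (0.56 and 0.48), Cntn2 (0.15 and 0.49) and Dlg4 (0.28 and 0.08). The list's median of log2(mean TPM + 1) was 1.31, against 0.30 for all protein-coding genes. Genes of the Kcne and Kv10 to Kv12 groups were low. Of 5 Kcne genes and 8 genes of the Kv10 to Kv12 group none passed that level in both pools. The highest of the first group were Kcne1l (0.07 and 1.11) and Kcne4 (0.01 and 0.02), and of the second Kcnh7 (0.37 and 0.32) and Kcnh1 (0.10 and 0.34). Kcng4, a silent subunit that modifies Kv2 channels, did pass it (5.58 and 8.32).

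Between the pools, 2 of the 9 genes differed by more than 2-fold in counts scaled by TMM (trimmed mean of M values), both higher in pool 2. Among all 14495 genes with at least 10 counts in total, 32.1% did so in either direction. The higher level was in pool 2 for 16.5% and in pool 1 for 15.6%. Among the 9525 genes with a mean of at least 50 counts, 17.7% differed by more than 2-fold in either direction. Kcna2, with 8 and 88 counts, lay just under that mean. Kcna2 was 10.6-fold higher in pool 2, with an exact 95% interval of its log2 ratio, pool 2 over pool 1, from 2.36 to 4.66. Kcnc4 had a log2 ratio of 1.02 (0.58 to 1.47), at the edge of 2-fold. With 1 library a side these ratios have no replicate check, and the intervals cover counting error only. Kcnab2 (0.74), Kcnc1 (0.51) and Kcnd2 (0.22) were also higher in pool 2, within 2-fold. Kcnd3 (-0.005), Kcna1 (-0.06), Kcnab1 (-0.27) and Kcna6 (-0.33) were level or lower. Under total counts, where the median of all genes was 0.19, Kcna1 turned to 0.14 and Kcnd3 to 0.19. The median was 0.22 for the 9 genes and -0.004 for all genes tested. Over the same scale the Bergmann glia and astrocyte markers had a median of 0.71, with 8 of 10 higher in pool 2, and the Purkinje markers -0.40, with 3 of 15 higher. The part of those cells in the ratios of the Kv genes was not tested. Under spike-in totals the median of all genes was -0.77, and Kcnab2, Kcnc1 and Kcnd2 turned to -0.03, -0.26 and -0.55, still above that median, while Kcnc4 stood at 0.25 and so within 2-fold. Kcna6 (-1.10) and Kcnab1 (-1.04) were then past 2-fold lower in pool 2. The calls thus went from 2 higher and 0 lower to 1 higher (Kcna2) and 2 lower. The share of all genes past 2-fold under spike-in totals was not computed, so these calls have no background. On the log2(TPM + 1) scale Kcnab1 and Kcna6 turned to 0.01 each, while Kcna2 had 0.72 and Kcnc4 0.59, so neither passed 2-fold there.

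**Figure D4:**
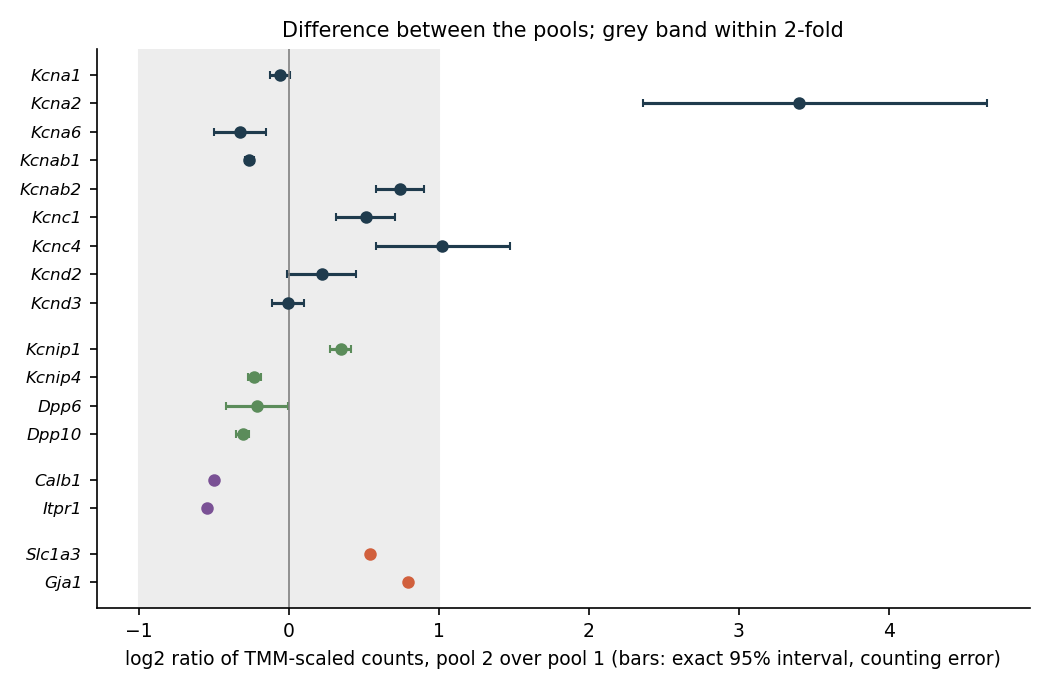
Log2 ratio of TMM-scaled counts, pool 2 over pool 1, for the 9 Kv genes (dark blue), Kv4 auxiliary genes that reached a TPM of 1 in each pool (green), 2 Purkinje markers (purple) and 2 glial markers (orange), with exact 95% intervals for counting error; the grey band is within 2-fold. Kcna2 lies farthest to the right, Kcnc4 at 1.02, and the other 7 lie within the band.

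Other genes with a row in the tables overlap some of these spans, and 4 overlapping genes of M21, 3 in Kcnd2 and 1 in Kcnd3, were not analysed here. The spans are those of M21, so overlaps with the part of the Kcna1 M4 model outside its span were not sought. The highest was AC113458.1 in Kcnab1, with the 160 and 70 counts given above. Gm26673, antisense to Kcna6, had 0 and 1.02 counts, and A330015K06Rik, antisense to Kcnab1, had 8 and 18. Kcnd3os, antisense to the start of Kcnd3, had 0 and 1, and Nphp4, which overlaps the 5′ end of Kcnab2 on the other strand, had 24 and 14. Whether counting used strand is not stated in the labels or tables, so reads of such pairs cannot be told apart by strand. Each Kv1 member has its whole coding sequence in 1 exon, while the Kv3 members have 4 coding exons (2 in the short form of Kcnc1). The Kv4 members have 6 (7 in the longer forms of Kcnd3, listed at 0). The main M4 transcripts of the 7 alpha genes varied in length, from 2080 bases (Kcna6) to 8970 (Kcna1).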

How the data were processed

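RNA of 2 laser-captured pools of Purkinje cells was measured with a SMARTer Ultra Low kit, per the labels' protocols. The tables were made on mm10 with GENCODE M4, per the deposited text files. Aligner and quantifier: not given in the sources used here. Columns hold, per the file headers as the authors deposited them, expected counts (estimated reads per gene or transcript), TPM and FPKM, each also as posterior means, and the percent of a gene's TPM per transcript. The last was recomputed from TPM. Deposited effective lengths were the length less 99 bases in 100% of longer transcripts. Rows with numeric identifiers and spike-ins, together 0.211% and 0.412% of counts in pools 1 and 2, were left out of scaling.

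Symbols matched 42462 of 43346 genes. Coordinates and transcript types were taken from GENCODE M21 (mm10), and start windows from RefSeq. Rounded counts were scaled by TMM (edgeR 4.0.16), with DESeq2 1.42.0 size factors, total counts, spike-in totals and TPM with a pseudocount of 1 or 0.1 as alternatives. The ratio script was tested on simulated data. With 1 group there was no test and no p-value. Exact intervals are Clopper-Pearson at 95%. Bias towards the reference allele in the hybrid was not tested.

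The 9 members and the 16 gene lists were chosen with earlier results of these data known. Named genes were the 9 members, others of their families, the auxiliary and axonal genes, and the highest of the other groups. Markers, overlapping genes, and auxiliary and axonal genes under a TPM of 1 were named after their values were seen. Some genes of these families and 1 sequence are not reported here.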

Additional observations from a re-analysis of the deposited data

How the results depend on the processing

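Values were recomputed with posterior mean TPM, FPKM, expected counts, M21 lengths, other scalings and thresholds, and with each pool left out. The share of Kcna1 in Kv1 moved from 60.8% of TPM to 59.9% of posterior mean TPM, 84.2% of counts and 88.7% by M21 length. The last was chosen after seeing the data, and divided counts made on M4 models by M21 lengths. The share of Kcnd3 in Kv4 moved from 75.0% to 80.8% of counts. That of Kcnab1 moved by less than the SD between pools. At a TPM of at least 5 the genes above the threshold in both pools went from 2 to 1 in the beta family and from 2 to 0 in Kv4. Genes past 2-fold between the pools went from 2 to 0 on the log2(TPM + 1) scale. They were 2 under the other scalings except spike-in totals, which gave 3 (Kcna2 higher, Kcna6 and Kcnab1 lower in pool 2). The share of all genes past 2-fold was computed under TMM alone. Without pool 1 or pool 2 the shares ran from 60.3% to 61.4% for Kcna1, 95.8% to 97.3% for Kcnab1 and 73.4% to 76.6% for Kcnd3, and the genes above a TPM of 1 from 2 to 3 in the beta family. The cause was not tested beyond the lengths each measure uses. Of the recomputed family values and counts 32 stayed within the SD, or within 1.5 times for a count, and 7 moved. Of those for single genes and other lists 121 stayed and 41 moved. Ratios between pools were judged there by their exact interval for counting error. The ratios of Kcna2 and Kcnc4 kept their sign throughout. With 2 pools, a single pool always lies within the SD of their mean. Levels and shares with a pool left out could therefore only be tallied as stayed. No paired analysis was possible because the pools form 1 group. Transcript shares are the authors' estimates, and at 8 to 135 counts the levels of Kcna2 and Kcnc4 have wide counting error.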
